A study of Homo sapiens with 27 samples.

Results

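The unfolded protein response of the endoplasmic reticulum (ER) was followed here through 10 genes, HERPUD1, HSPA5, XBP1, DNAJB9, SDF2L1, HYOU1, ERN1, DERL3, CRELD2 and PDIA4, among 26255 genes in each table. The genes were taken by symbol, and the set was chosen by a rule that names the high HERPUD1 of fluorouracil-resistant DLD-1 cells, so all values of that contrast are a description and carry no test. RNA-seq had been made from HCT116, SW480 and DLD-1, which are established human colorectal cancer (CRC) lines. Each line was profiled as untreated cells (WT, labelled negative control), as cells grown in fluorouracil until resistant (5-FU res) and as cells grown in oxaliplatin until resistant (OX res), 3 libraries each and 27 altogether. The labels give concentrations of 5 to 70 µM for fluorouracil and 5 to 35 µM for oxaliplatin over about 6 months, and all groups shared low-glucose medium with serum. Each resistant group is 1 selected population per line and drug, and the study's methods describe the selection for HCT116 and SW480, whereas DLD-1 is described in the labels. The sources do not say whether a group's 3 libraries were grown as separate cultures, and the p-values therefore cover library-to-library spread, possibly technical, and no more.

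The ER folds secreted and membrane proteins. When unfolded proteins build up, 3 sensors in its membrane respond. IRE1 (gene ERN1) cuts XBP1 mRNA so that it encodes an active transcription factor, ATF6 is cleaved in the Golgi to release another, and PERK (gene EIF2AK3) slows translation and raises the factors ATF4 and CHOP (gene DDIT3). Their targets include the chaperone BiP (gene HSPA5) with its partners, enzymes that form disulphide bonds, and the machinery of ER-associated degradation (ERAD), which draws misfolded proteins out for the proteasome. The cut form of XBP1 cannot be told from the uncut form in gene-level values.

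Levels are given in TPM (transcript abundance with a fixed sum per library), obtained by dividing each deposited FPKM by the sum of its library. FPKM sums ran from 451767 to 804635, and the relative read number, estimated from the smallest steps between low values of 2054 genes, ran from 0.734 in DLD-1 OX res replicate 2 to 1.153 of the typical library. Within groups, libraries correlated across genes at 0.991 to 0.995. The epithelial markers summed to 5702 to 20960 TPM, with KRT8, KRT18 and EPCAM present in all groups, while the endothelial markers summed to at most 2.09 and the fibroblast markers to at most 17.8 TPM. VIL1 was near 0 in HCT116 and DLD-1. Levels of epithelial markers differed with resistance, in both directions. Among the rises over untreated cells, DLD-1 OX res had higher medians of KRT8 (9983 against 4688 TPM), KRT18 (7225 against 3106) and KRT19 (1176 against 525). HCT116 5-FU res had a higher median of EPCAM (488 against 391), and SW480 OX res of KRT18 (4854 against 3632). Examples of falls follow. Median EPCAM was 391 TPM in HCT116 WT and 68.3 in OX res, and 326 in SW480 WT and 106 in 5-FU res. Median CDH1 was 29.6 in HCT116 WT and 3.60 in OX res, and 17.1 in SW480 WT beside 3.24 (5-FU res) and 2.97 (OX res). Median CDX2 was 44.5 in SW480 WT and 5.68 in 5-FU res, and 193 in DLD-1 WT and 91.0 in 5-FU res. Their part in the results was not tested. The leukocyte and plasma cell list reached 67.2 TPM in HCT116 OX res, almost all of it CD68, with the defining PTPRC and TNFRSF17 at or near 0. TPM has a fixed sum, and ribosomal protein genes took from 12% of it in HCT116 OX res to 26.0% in HCT116 5-FU res. The median of all genes tested was not at 0. On the log2 scale it lay at 0.18 for HCT116 5-FU res, 0.60 for HCT116 OX res, 0.44 for SW480 5-FU res, 0.36 for SW480 OX res, -0.03 for DLD-1 5-FU res and 0.13 for DLD-1 OX res, each against the WT of its line. Differences were tested with limma on log2(TPM + 1) within each line, over genes at 1 TPM or more in at least 3 of its 9 libraries, and a gene passed the threshold with an adjusted p under 0.05 if its log2 fold change also lay beyond 1. Beside the log2 fold changes, values after median-of-ratios scaling are given, which sets the typical gene near 0 (called scaling below). All shares of all genes are those of the fit on TPM. None was computed after scaling or in any other recomputation, so those counts have no share to be judged by. In such bulk samples, fewer cells that make a transcript and less of it per cell cannot be told apart.

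Promoter sequences are shown because these genes are known to be driven through shared short elements. RefSeq windows of 300 bases, 250 before and 50 after an annotated start, existed for 9 of the 10 genes, and DERL3 had no entry. Windows were read from GRCh38.p14 and placed on GRCh37, the build of the study, by exact match. The ER stress response element (ERSE) is CCAAT followed after 9 bases by CCACG, ERSE-II is ATTGG followed after 1 base by CCACG, the unfolded protein response element (UPRE) is TGACGTGG, and the composite element bound by ATF4 (CARE) is TGATG followed after 1 base by AA. Both strands were searched. ERSE occurred in 0.077% of the 35116 windows searched and in those of HSPA5, XBP1 and CRELD2. ERSE-II occurred in 0.054% of windows and in those of HERPUD1, HYOU1 and SDF2L1. UPRE, in 0.729% of windows, was found for HYOU1, where it overlaps an ERSE-II, and CARE, in 3.62% of windows, for HERPUD1. DNAJB9, PDIA4 and ERN1 had none of these 4 motifs, and CCAAT alone was in 34.6% of windows and in all 9 genes. A match describes letters in the window, not a bound site. The stretches around the matches run 5′ to 3′ on the strand of the gene, with the motif in capitals.
HERPUD1, chr16:56965858-56965967, plus strand, outside annotated genes: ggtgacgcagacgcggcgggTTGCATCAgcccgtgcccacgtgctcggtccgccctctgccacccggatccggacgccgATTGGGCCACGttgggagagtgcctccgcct
HSPA5, chr9:128003662-128003708, minus strand, just before the first exon: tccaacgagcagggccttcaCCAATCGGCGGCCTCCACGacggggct
XBP1, chr22:29196586-29196629, minus strand, just before the first exon: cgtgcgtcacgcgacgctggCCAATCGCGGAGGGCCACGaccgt
CRELD2, chr22:50312182-50312240, plus strand, in an intron of a longer annotated CRELD2 transcript: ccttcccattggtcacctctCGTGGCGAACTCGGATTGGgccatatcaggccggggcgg
SDF2L1, chr22:21996383-21996433, plus strand, outside annotated genes: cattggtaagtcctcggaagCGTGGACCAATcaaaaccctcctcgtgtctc
HYOU1, chr11:118927965-118928124, minus strand, outside annotated genes: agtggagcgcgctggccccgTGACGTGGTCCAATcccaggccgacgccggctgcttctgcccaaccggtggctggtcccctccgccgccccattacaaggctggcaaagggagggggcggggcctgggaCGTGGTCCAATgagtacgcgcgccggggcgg

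**Figure D1:**
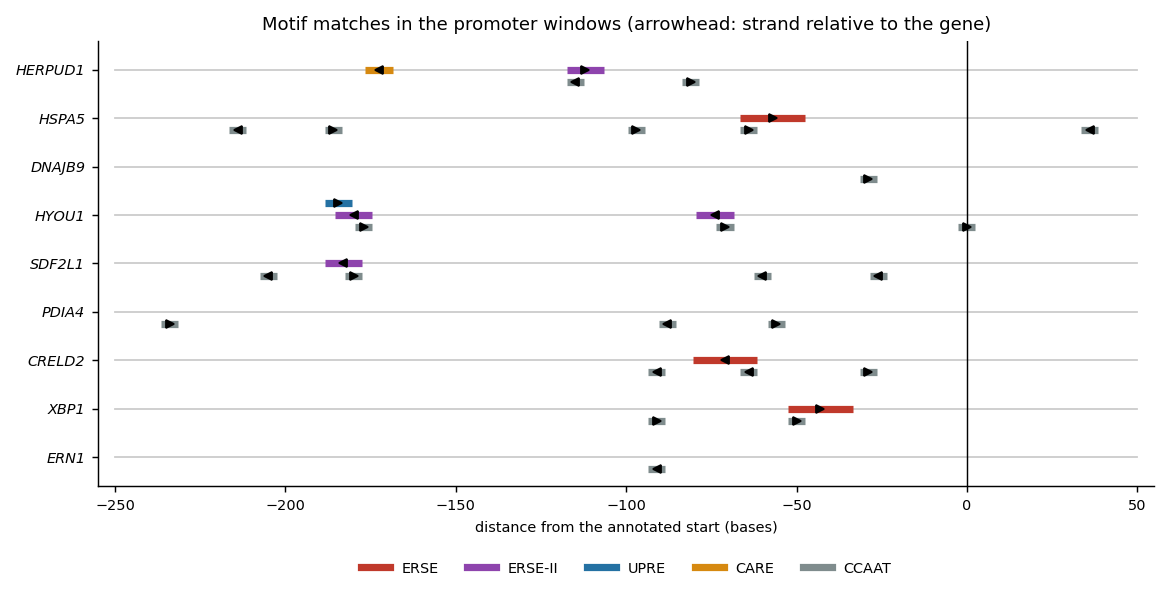
Matches of 5 motifs in the RefSeq promoter windows of 9 genes, by distance from the annotated start in bases (first start where a gene has more than 1), with the arrowhead giving the strand relative to the gene. ERSE or ERSE-II lies before the start in 6 genes, and DNAJB9, PDIA4 and ERN1 hold CCAAT without them.

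HERPUD1 (chr16:56966054-56978776 on GRCh37, plus strand), an ER membrane protein that organizes the ubiquitin ligase complex of ERAD, had the widest range of the 9 genes other than DERL3, with a ratio of 25.3 between its highest and lowest group means. The highest mean, 585 TPM, is that of DLD-1 5-FU res, and the next is 118 in SW480 5-FU res. As DLD-1 5-FU res is the group that chose the set, the width of this range is a description. In DLD-1 the TPM of HERPUD1 was 110, 114 and 114 in the WT libraries, 592, 599 and 565 in the 5-FU res libraries and 76.8, 79.0 and 78.3 in the OX res libraries. The 5-FU res libraries stood 5.19-fold over WT and 7.50-fold over OX res, and the 3 groups did not overlap. These are the values by which the set was chosen.

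HCT116 showed the opposite order. HERPUD1 was at 39.4, 41.1 and 38.7 TPM in WT, 22.3, 21.02 and 26.1 in 5-FU res and 119, 116 and 118 in OX res, again without overlap. It was lower in 5-FU res than in WT by a log2 fold change of -0.76 ± 0.07 (SE, adjusted p = 1.4e-06), short of the 2-fold threshold, and -0.97 after scaling. In OX res it rose by 1.54 ± 0.07 (adjusted p = 1.4e-09), or 0.98 after scaling, just under the threshold. In SW480 both resistant groups were high, with 47.4, 44.2 and 48.1 TPM in WT, 119, 121 and 113 in 5-FU res and 106, 107 and 99.1 in OX res. The rise was 1.32 ± 0.06 for 5-FU res (adjusted p = 8.2e-09) and 1.14 ± 0.06 for OX res (adjusted p = 6.6e-08), and 0.87 and 0.72 after scaling, both then under the threshold. Ordered by group mean, HERPUD1 was highest in DLD-1 5-FU res, followed by SW480 5-FU res and HCT116 OX res, whose libraries overlapped, and lowest in HCT116 5-FU res. All other neighbours in that order were apart.

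Among 14255 genes, the 5 whose log2(TPM + 1) followed HERPUD1 most closely over the 27 libraries were ILDR2 (Pearson r = 0.918), CNOT3 (0.917), COMMD3 (0.915), MARS (0.915) and DNAJC3 (0.912), of which DNAJC3 encodes an ER co-chaperone that also restrains PERK. HYOU1 ranked 9 with r = 0.907 and HSPA5 12 with r = 0.899, whereas SDF2L1 ranked 1362 and DERL3 9362. The points share lines, groups and the fixed sum of TPM, so these coefficients are a description and carry no p. The points also include the DLD-1 5-FU res libraries, whose HERPUD1 level chose the set. Each of the 5 genes had its highest group mean there.

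DERL3 (chr22:24176690-24181315, minus strand), a derlin that helps to pull proteins out of the ER for ERAD, was seen in SW480. Its TPM there was 2.76, 2.69 and 3.80 in WT, 9.92, 9.18 and 7.43 in 5-FU res and 3.62, 2.15 and 3.14 in OX res. In HCT116 and DLD-1 no library exceeded 0.25 TPM and several were listed at 0, below the filter of 1 TPM in at least 3 libraries of a line. In SW480 DERL3 rose in 5-FU res by 1.27 ± 0.17 against WT (adjusted p = 4.3e-05, 0.91 after scaling) and by 1.32 ± 0.17 against OX res (adjusted p = 5.5e-05, 1.28 after scaling). OX res and WT overlapped.

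HSPA5 (chr9:127997132-128003661, minus strand) encodes BiP, the central Hsp70 chaperone of the ER, and was the most abundant of the 10 in every group. DLD-1 WT libraries held 487, 483 and 488 TPM, 5-FU res 1786, 1794 and 1635, and OX res 385, 394 and 381, so that 5-FU res was 3.58-fold over WT. In HCT116, WT held 331, 364 and 361 TPM, 5-FU res 137, 141 and 144, and OX res 644, 646 and 646. The groups of each of these lines were fully apart, with 5-FU res highest in DLD-1 and lowest in HCT116. In HCT116 HSPA5 fell by 1.31 on the log2 scale in 5-FU res (SE 0.04, adjusted p = 4.8e-10, -1.53 after scaling). In OX res its log2 fold change was 0.87 (adjusted p = 2.9e-09), but 0.30 after scaling. SW480 libraries ranged from 230 to 261 TPM in WT, from 297 to 303 in 5-FU res and from 274 to 284 in OX res. Here the sign depended on the scaling, at 0.28 for 5-FU res and 0.16 for OX res on TPM against -0.18 and -0.26 after scaling.

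DNAJB9 (chr7:108210311-108215294, plus strand), the J-domain co-chaperone of BiP known as ERdj4, was the only one of the 10 whose mean was above WT in all 6 resistant groups. In HCT116 it was at 6.84, 7.54 and 8.17 TPM in WT, 13.7, 14.2 and 14.5 in 5-FU res and 31.3, 34.8 and 32.6 in OX res. In SW480 it was at 6.61, 4.99 and 5.78 in WT, 19.9, 21.6 and 20.9 in 5-FU res and 14.2, 10.9 and 14.0 in OX res. Within both lines the 3 groups were apart. DNAJB9 rose in HCT116 OX res by 1.99 ± 0.08 (adjusted p = 3.6e-10), in SW480 5-FU res by 1.69 ± 0.12 (adjusted p = 3.6e-07) and in SW480 OX res by 1.05 ± 0.12 (adjusted p = 2.1e-05), which became 1.46, 1.29 and 0.68 after scaling. For HCT116 5-FU res the value was 0.83 ± 0.08 (adjusted p = 1.3e-06, 0.64 after scaling). DLD-1 held 13.9, 13.8 and 14.7 TPM in WT, 71.2, 71.5 and 62.6 in 5-FU res and 16.6, 14.5 and 18.2 in OX res. The 5-FU res libraries were 4.85-fold over WT, and OX res overlapped WT (log2 fold change 0.20, adjusted p = 0.063).

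HYOU1 (chr11:118914899-118927938, minus strand) encodes a large Hsp70-related chaperone that acts as a nucleotide exchange factor for BiP. Its TPM was 97.5, 96.0 and 101 in HCT116 WT, 58.3, 56.6 and 55.8 in HCT116 5-FU res and 153, 139 and 166 in HCT116 OX res. It was lower in 5-FU res by -0.78 (adjusted p = 2.7e-07, -0.996 after scaling), short of the threshold. The value for OX res was 0.63 (adjusted p = 8e-07), but 0.06 after scaling. SW480 libraries lay between 88.9 and 107 TPM in all 3 groups, with log2 fold changes of 0.10 for 5-FU res (adjusted p = 0.17) and -0.01 for OX res (adjusted p = 0.88), which became -0.35 and -0.43 after scaling. In DLD-1 5-FU res HYOU1 reached 372, 384 and 357 TPM, against 170, 182 and 180 in WT and 143, 158 and 148 in OX res.

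SDF2L1 (chr22:21996591-21998588, plus strand), a partner of BiP and of its J-domain proteins, and CRELD2 (chr22:50311815-50321188, plus strand), a secreted ER protein with isomerase activity, shared the strongest fall in HCT116 5-FU res. SDF2L1 went from 130, 122 and 116 TPM in WT to 36.2, 38.8 and 28.6. CRELD2 went from 57.3, 54.3 and 49.3 TPM to 15.2, 14.9 and 13.7. Both changed by a log2 fold change of -1.81 (adjusted p = 1.1e-08 and 5.5e-09, and -2.03 for each after scaling). In HCT116 OX res, SDF2L1 was at 66.8, 64.9 and 68.2 TPM, below WT by -0.87 (adjusted p = 2e-06, -1.43 after scaling), while CRELD2, at 52.8, 43.6 and 52.3, overlapped WT (-0.11, adjusted p = 0.22, -0.67 after scaling). In SW480 neither gene rose. CRELD2 was lower by -0.62 in 5-FU res and -0.48 in OX res (adjusted p = 2.6e-05 and 0.00023), and SDF2L1 by -0.54 in OX res (adjusted p = 0.00095), with overlap of SDF2L1 between 5-FU res and WT. DLD-1 5-FU res held 206, 217 and 208 TPM of SDF2L1, 3.39-fold over WT, and 162, 167 and 169 TPM of CRELD2, 2.36-fold over WT, the highest group of the 9 for both genes.

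PDIA4 (chr7:148700154-148725754, minus strand), a protein disulphide isomerase, had the same order of groups as HSPA5 within HCT116 and DLD-1. It was at 220, 221 and 218 TPM in HCT116 WT, 118, 119 and 112 in 5-FU res and 318, 300 and 326 in OX res. The log2 fold change was -0.91 ± 0.04 in 5-FU res (adjusted p = 6.9e-09), which passed the threshold after scaling at -1.13, and 0.52 in OX res, which reversed to -0.05 after scaling. In SW480 the values were 0.38 for 5-FU res, -0.07 after scaling, and -0.19 for OX res, -0.62 after scaling. DLD-1 5-FU res libraries held 606, 620 and 563 TPM against 245, 247 and 237 in WT, a ratio of 2.45, and 231, 216 and 222 in OX res.

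XBP1 (chr22:29190543-29196585, minus strand), the transcription factor of the IRE1 arm, and ERN1 (chr17:62116440-62208179, minus strand), which encodes IRE1 itself, are the signalling genes of the set. XBP1 was at 55.8, 59.6 and 57.4 TPM in HCT116 WT, 36.1, 33.9 and 36.8 in 5-FU res and 208, 200 and 193 in OX res. Its rise in OX res was 1.78 ± 0.05 (adjusted p = 3.5e-11, 1.21 after scaling) and its value in 5-FU res -0.68 (adjusted p = 2.4e-07, -0.89 after scaling). SW480 WT held 39.4, 30.8 and 33.4 TPM of XBP1, 5-FU res 54.8, 59.9 and 53.4, and OX res 55.3, 52.0 and 50.6, both resistant groups above WT by 0.69 and 0.60 (0.24 and 0.18 after scaling). DLD-1 WT, at 154 to 157 TPM, was already 2.69-fold over HCT116 WT, and 5-FU res reached 260, 260 and 244 TPM, a ratio of 1.64 that was the smallest of the 9 genes measured in that line.

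ERN1 was low throughout, from 0.393 to 10.1 TPM. HCT116 WT held 0.412, 0.393 and 1.09 TPM, 5-FU res 3.11, 2.11 and 2.90, and OX res 3.31, 2.56 and 5.72. It was higher by 1.201 ± 0.23 in 5-FU res (1.15 after scaling) and by 1.55 ± 0.23 in OX res (1.23 after scaling). With WT at these levels, ERN1 passed the filter of this line only through the resistant groups, where it is high. Both differences are therefore a description, and ERN1 was the only member listed as higher past the threshold in HCT116 5-FU res. With the trend on transcript length removed, ERN1 was at 0.70 there, under the threshold, and DNAJB9 passed it at 1.008. On FPKM and after quantile normalization ERN1 was under the threshold in both resistant groups of HCT116 (0.88 and 0.92 in 5-FU res, 0.95 and 0.85 in OX res). SW480 WT libraries spread from 1.16 to 2.66 TPM and overlapped 5-FU res, whereas OX res, at 5.47, 5.21 and 5.53 TPM, rose by 1.17 ± 0.17 (adjusted p = 0.0001, 0.88 after scaling and 0.77 with the length trend removed). In DLD-1 the order was 5-FU res (8.92, 10.1 and 9.27 TPM), WT (5.197, 5.98 and 4.94) and OX res (3.84, 4 and 3.70), without overlap.

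**Figure D2:**
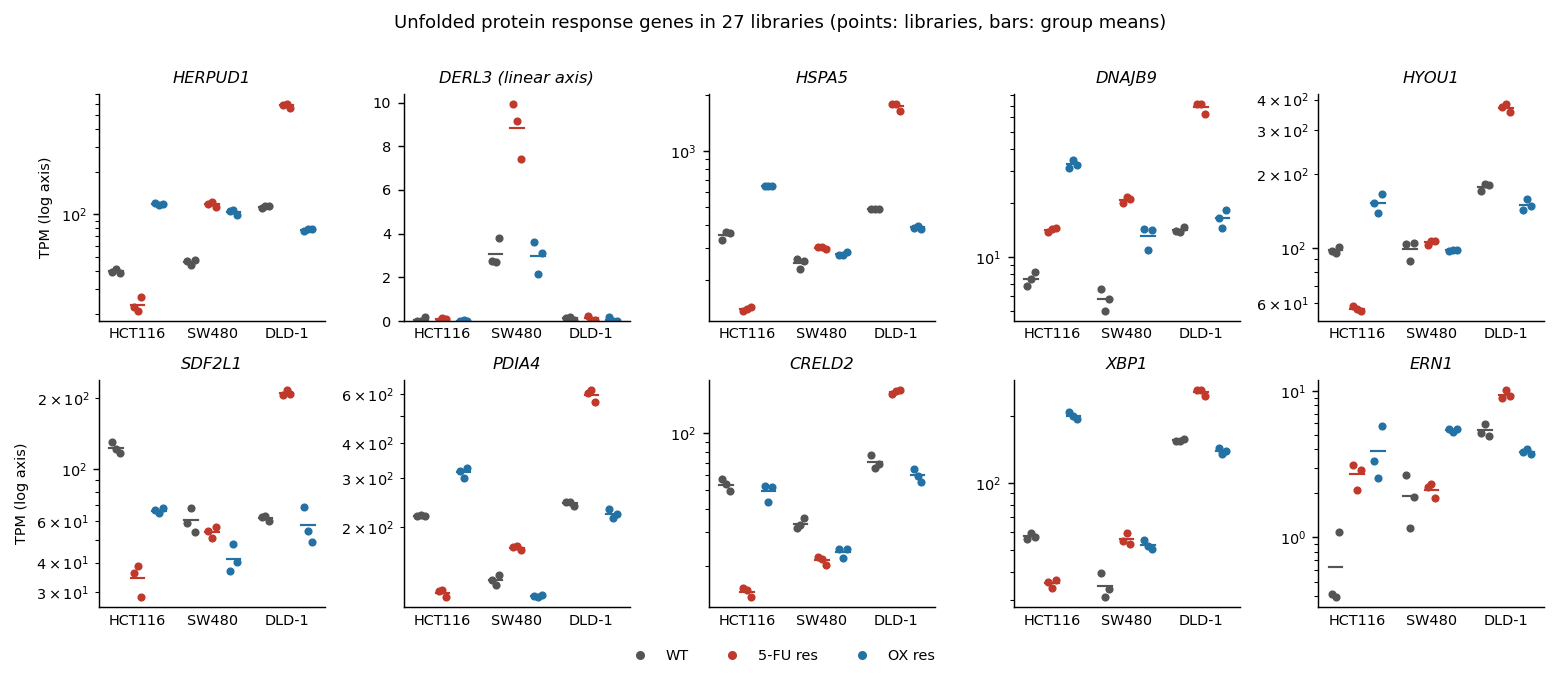
TPM of the 10 genes in each of the 27 libraries, with points for libraries and bars for group means, by line and group, on a log axis except for DERL3. For the 9 genes other than DERL3 the DLD-1 5-FU res libraries are the highest, and 7 of these 9 genes are lowest in HCT116 5-FU res or share the lowest place with an overlapping group. DLD-1 5-FU res is the group that chose the set, so both counts are a description. The share of all genes in either place was not computed.

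Counted over the set, HCT116 5-FU res against WT had 9 of the 10 genes measured. ERN1 was higher past the threshold and HSPA5, SDF2L1 and CRELD2 were lower, where 11.6% of 14010 genes were higher and 3.82% lower. As ERN1 passed the filter in HCT116 only through the resistant groups, its place in the counts against WT in this line is a description. By adjusted p alone, 2 were higher and 7 lower, against 74.7% of all genes in either direction. The median of the 9 was -0.78 beside 0.18 for all genes tested. In HCT116 OX res against WT, 4 were higher past the threshold (HERPUD1, XBP1, DNAJB9 and ERN1) and 0 lower, where 28.5% of all genes were higher and 4.83% lower, and 7 higher and 1 lower by adjusted p alone, against 86.2% of all genes. After median-of-ratios scaling 3 were higher and SDF2L1 was lower. The median was 0.88 beside 0.60 for all genes.

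The direct comparison of the resistant groups of HCT116 gave the widest differences with a test. HERPUD1 (log2 fold change -2.30), HSPA5 (-2.19), XBP1 (-2.46), DNAJB9 (-1.16), HYOU1 (-1.41), CRELD2 (-1.69) and PDIA4 (-1.43) were lower in 5-FU res than in OX res, 7 of 9 measured genes, with standard errors of 0.04 to 0.08, where 17.3% of all genes were lower and 5.19% higher. SDF2L1, at -0.94, passed the adjusted p alone (-1.03, past the threshold, without 5-FU res replicate 2), and 77.1% of all genes passed by adjusted p. ERN1 overlapped (-0.35, adjusted p = 0.18). The median of the 9 was -1.43 and that of all genes -0.34, and 6 of the 7 calls stood after scaling, all but DNAJB9.

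In SW480 all 10 genes were measured. HERPUD1, DNAJB9 and DERL3 rose past the threshold in 5-FU res against WT and 0 fell, where 18.3% of 14039 genes were higher and 2.85% lower. By adjusted p alone 6 were higher and 1, CRELD2, was lower, against 77.3% of all genes. After scaling DNAJB9 was higher and CRELD2 lower past the threshold. HERPUD1, DNAJB9 and ERN1 rose in OX res against WT, where 13.7% of all genes were higher and 1.22% lower, with 5 higher and 3 lower by adjusted p alone against 71.8% of all genes. None of these 3 calls stood after scaling. Without WT replicate 2, DNAJB9 (0.96) and ERN1 (0.98) fell under the threshold and 1 gene passed, and DNAJB9 also did so without OX res replicate 1 or 3 (0.986 and 0.997). The median of the 10 was 0.33 for 5-FU res and 0.07 for OX res, below that of all genes in both. Between the 2 resistant groups of SW480, DERL3 was higher in 5-FU res (1.32) and ERN1 lower (-1.04, SE 0.17, adjusted p = 0.00031, -0.98 without 5-FU res replicate 3), where 6.49% and 4.61% of all genes were higher and lower. DNAJB9, PDIA4, SDF2L1 and HERPUD1 had log2 fold changes of 0.64, 0.57, 0.38 and 0.18 with adjusted p of 0.00084, 1.6e-06, 0.01 and 0.017, and 61.6% of all genes passed by adjusted p. The other 4 did not pass.

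DLD-1 5-FU res was above WT in 9 of 9 measured genes without overlap, and 7 of them differed by more than 1 on the log2 scale, a criterion met upward by 2.13% and downward by 1.75% of 13467 genes. As the set was chosen on this contrast, both counts are a description. The share of all genes above WT without overlap alone was not computed. From the largest, the ratios of mean TPM were 5.19 for HERPUD1, 4.85 for DNAJB9, 3.58 for HSPA5, 3.39 for SDF2L1, 2.45 for PDIA4, 2.36 for CRELD2, 2.09 for HYOU1, 1.76 for ERN1 and 1.64 for XBP1. The summed TPM of the 10 genes was 1325 to 1329 in the WT libraries and 3812 to 4123 in the 5-FU res libraries, against 434 to 442 in HCT116 5-FU res. In DLD-1 OX res, which was compared with the same WT libraries, 0 of 8 tested genes passed the threshold in limma, where 2.7% of all genes were higher and 0.913% lower. By adjusted p alone 6 of the 8 were lower, HSPA5 (-0.33), XBP1 (-0.15), HYOU1 (-0.24), ERN1 (-0.39), CRELD2 (-0.22) and PDIA4 (-0.12), and 49.8% of all genes passed by it. HERPUD1 was at 0.692 of its WT level, with no test.

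**Figure D3:**
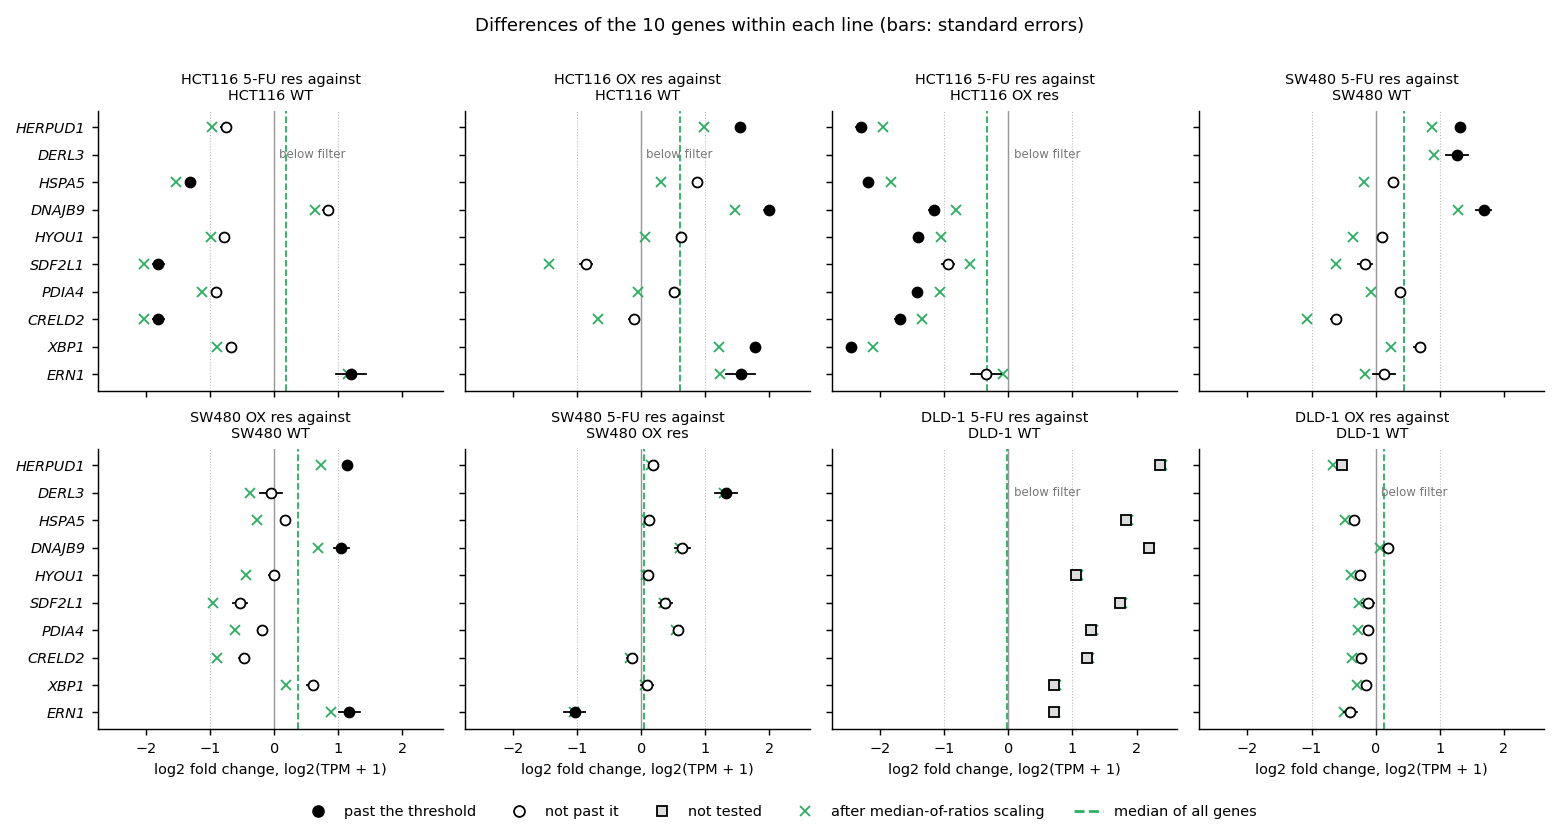
Log2 fold changes of log2(TPM + 1) for the 10 genes in 8 comparisons within lines, with standard errors, black points past the threshold, white points not past it, grey squares not tested, green crosses after median-of-ratios scaling and a dashed line at the median of all genes. In the direct comparison of HCT116 5-FU res with OX res 7 black points lie below -1, and in SW480 the crosses of HSPA5 and PDIA4 for 5-FU res lie on the other side of 0 from their points.

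Differences between lines in the change with one drug were tested as interactions over all 27 libraries. For 5-FU res against WT, SW480 minus HCT116, the difference in log2 fold change was 2.08 ± 0.08 for HERPUD1 (adjusted p = 4.3e-16), 1.65 for SDF2L1, 1.59 for HSPA5, 1.37 for XBP1, 1.29 for PDIA4, 1.24 for DERL3 and 1.19 for CRELD2. ERN1 differed the other way by -1.07 (adjusted p = 0.0015), a call lost without HCT116 WT replicate 1 or 2, HCT116 5-FU res replicate 1 or SW480 WT replicate 1 (-0.98, -0.97, -0.99 and -0.89), and with the length trend removed (-0.79). These 8 of 10 genes passed the threshold where 19.8% of 15801 genes did. DERL3 among them is at or near 0 in HCT116 and passed the filter only through SW480, so its difference is a description. After scaling DERL3 and CRELD2 fell under the threshold at 0.89 and 0.965. For OX res against WT, XBP1 alone passed between SW480 and HCT116 (-1.18 ± 0.09, adjusted p = 9.8e-11), where 19.5% of all genes did, and DNAJB9 at -0.94 joined it without SW480 WT replicate 2 or SW480 OX res replicate 1 (-1.03 and -1.01). HSPA5 (-1.204), XBP1 (-1.93), DNAJB9 (-1.79) and ERN1 (-1.94) passed between DLD-1 and HCT116, 4 of 9 tested, where 29.1% did. After scaling HSPA5 fell under the threshold at -0.78 and SDF2L1 passed it at 1.17. ERN1 passed between DLD-1 and SW480 (-1.56, adjusted p = 3.4e-05), 1 of 9 tested, where 14.4% did. DLD-1 libraries carry their own series of library names, and this cannot be told apart from the line.

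Untreated lines already differed. SDF2L1 was lower in SW480 WT than in HCT116 WT (-1.01, adjusted p = 2.2e-08, -0.97 after scaling) and DERL3 higher (at most 0.178 TPM in HCT116 WT), 1 gene each way, where 12.6% of 15801 genes were higher and 12.4% lower. DERL3 passed the filter over all lines only through SW480, so its differences between SW480 and the other lines are a description. The call for SDF2L1 was lost without HCT116 WT replicate 1 or SW480 WT replicate 1 or 3 (-0.969, -0.996 and -0.933), and ERN1 at 0.83 passed without HCT116 WT replicate 3 or SW480 WT replicate 2 (1.02 in both). Against HCT116 WT, DLD-1 WT was higher for XBP1 (1.41 ± 0.06, 0.95 after scaling) and ERN1 (1.99 ± 0.19, 1.74 after scaling), and SDF2L1 at -0.97 passed after scaling at -1.44, where 24.9% of all genes were higher and 9.68% lower. Against SW480 WT, DLD-1 WT was higher for XBP1 (2.14), DNAJB9 (1.16), ERN1 (1.16) and CRELD2 (1.05) and lower for DERL3, where 25.0% of all genes were higher and 10.9% lower. After scaling XBP1 at 1.64 was the one of these 4 above the threshold. ERN1 fell to 0.97 without SW480 WT replicate 2 and CRELD2 to 0.99 without DLD-1 WT replicate 1, while HSPA5 at 0.97 reached 1.005 without SW480 WT replicate 1. DLD-1 WT libraries held 110 to 114 TPM of HERPUD1, above all 6 WT libraries of the other lines, and were not tested for it.

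Beyond the 10 genes, 90 further genes of the same pathways were taken as 7 lists, chosen with earlier results of these data known. In HCT116 5-FU res against WT, 5 of 89 measured were higher and 7 lower past the threshold, where 11.6% of all genes were higher and 3.82% lower, with a median of -0.045 beside 0.18 for all genes. After scaling 1 was higher and 14 were lower. The ER chaperones and co-chaperones had 1 higher and 3 lower of 11, with a median of -0.60. MANF, a secreted ER protein that binds BiP, went from 164, 182 and 159 to 58.2, 65.2 and 63.1 TPM (-1.42, adjusted p = 6e-09, -0.98 with the length trend removed), and SIL1, a nucleotide exchange factor of BiP, from 35.7, 36.3 and 37.2 to 13.8, 12.4 and 16.1 TPM (-1.32, adjusted p = 1.4e-07). The largest rises were EDEM1, a mannosidase-like protein of ERAD (1.21, adjusted p = 2.8e-07), and ITPR3, a calcium release channel of the ER (1.18, adjusted p = 2.4e-07, 0.97 after scaling). EDEM1 fell under the threshold on FPKM (0.96), after quantile normalization (0.81) and with the length trend removed (0.84), and ITPR3 on FPKM (0.95) and with the length trend removed (0.60).

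Of the 7 lists, the PERK arm had the largest median difference between the resistant groups of HCT116, at -1.89. The list is only named for that arm, and whether PERK was active or raised these genes was not tested. Of the 8 targets in the PERK arm list, 5 rose past the threshold in OX res against WT, where 28.5% of all genes were higher. Their median was 2.26 over the 8, and after scaling the count was 5 as well. In 5-FU res 0 rose and 2 fell, where 3.82% of all genes were lower, and 4 fell after scaling. DDIT3 (CHOP) was at 21.2, 20.5 and 22.8 TPM in WT, 18.4, 20.5 and 23.9 in 5-FU res and 332, 338 and 314 in OX res, a rise of 3.87 ± 0.08 in OX res (adjusted p = 4.1e-12). CHAC1, a glutathione-degrading enzyme downstream of ATF4, went from 4.76, 5.10 and 4.63 TPM in WT to 61.2, 53.3 and 62.9 in OX res (3.36, adjusted p = 3.1e-11) and was at 1.89, 1.45 and 1.74 in 5-FU res. These were also the largest differences between the 2 resistant groups, at -3.91 for DDIT3 and -4.48 for CHAC1. ATF4 itself moved less, with log2 fold changes of -0.17 in 5-FU res and 0.61 in OX res (-0.39 and 0.0381 after scaling). EIF2AK3 and ATF6 rose in OX res by 1.22 and 1.29 (0.72 and 0.75 after scaling), and were higher in 5-FU res by 0.60 and 0.49 (0.42 and 0.29 after scaling). Of the 90, 23 of 89 were higher and 1 lower in OX res, a smaller share in each direction than the 28.5% and 4.83% of all genes, with a median of 0.61 against 0.60 for all genes. After scaling 13 were higher and 4 lower. Between the resistant groups 26 were lower and 1 higher in 5-FU res, where 17.3% and 5.19% of all genes were, with a median of -0.73 against -0.34, and 15 were lower and 2 higher after scaling. RNF5, a ubiquitin ligase of ERAD with a near-identical pseudogene that may share its reads, was the one lower in OX res (-1.23, adjusted p = 6.5e-05, -0.84 with the length trend removed) and higher in 5-FU res than OX res (1.72).

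In SW480 the wider lists had 7 higher and 1 lower of 89 genes for 5-FU res, beside 18.3% and 2.85% of all genes, and 2 higher and 5 lower after scaling. For OX res 11 were higher and 1 lower, beside 13.7% and 1.22% of all genes, which became 2 and 1 after scaling. CCPG1, a receptor for autophagy of the ER, rose most in both, and was at 5.02, 2.42 and 3.88 TPM in WT, 19.1, 20.3 and 19.5 in 5-FU res (2.15, adjusted p = 1.1e-06) and 15.9, 12.9 and 15.9 in OX res (1.77, adjusted p = 8.4e-06). CHAC1 rose in 5-FU res by 1.56 (adjusted p = 2.5e-06, 0.95 after quantile normalization) and ASNS, the asparagine synthetase under ATF4, in OX res by 1.49 (adjusted p = 2.1e-08). PDIA5, a disulphide isomerase, fell in 5-FU res from 35.6, 32.5 and 39.2 to 7.77, 9.70 and 10.0 TPM (-1.86, adjusted p = 6e-08) and was lower there than in OX res (-1.41), as was TRIB3, a pseudokinase downstream of CHOP (-1.39). RNF5 was listed at 0 in the 3 OX res libraries and at 3.03, 1.52 and 1.65 TPM in WT. DDIT3 had log2 fold changes of 0.85 in 5-FU res and 0.56 in OX res, which after scaling were 0.40 and 0.14 (adjusted p = 0.0013 and 0.15). ATF4 had -0.02 and 0.36, and after scaling -0.48 and -0.07 (adjusted p = 6.6e-05 and 0.36). EIF2AK3 had 0.01 and 0.72, and after scaling -0.40 and 0.34 (adjusted p = 0.0031 and 0.0088). ATF6 rose in OX res by 1.10 (adjusted p = 9.9e-06, 0.71 after scaling, 0.72 with the length trend removed and 0.99 without WT replicate 2) and stood at 0.13 in 5-FU res (adjusted p = 0.30, -0.28 after scaling). Between 5-FU res and OX res, log2 fold changes were -0.71 for EIF2AK3, -0.97 for ATF6, -0.38 for ATF4 and 0.29 for DDIT3.

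In DLD-1 5-FU res, 10 of the 90 were higher and 1 lower by more than 1 on the log2 scale without overlap, where 2.13% and 1.75% of all genes were, and 5 of the 10 were among the 8 PERK arm targets. The contrast is the one that chose the set, and nothing is read from these counts. DDIT3 went from 60.5, 53.6 and 57.2 TPM in WT to 286, 282 and 273, and ATF3, a transcription factor of the same arm, from 10.7, 9.52 and 8.61 to 40.7, 38.8 and 37.7. ERN2, the IRE1 paralogue of mucosal epithelium, was the one that was lower, at 56.6, 62.6 and 61.5 TPM in WT and 26.2, 27.2 and 26.9 in 5-FU res. It was at most 0.923 TPM in the HCT116 and SW480 libraries, below the filter. Differences from WT in log2 were 0.78 for EIF2AK3, 0.15 for ATF6 and 0.53 for ATF4, with no test. In DLD-1 OX res 0 of the 90 passed the threshold in limma, and 30 were higher and 19 lower by adjusted p alone (15 and 45 after scaling), where 49.8% of all genes passed in either direction. ERN2, at 77.7, 77.9 and 69.5 TPM, was higher by 0.31 (adjusted p = 0.001, 0.17 after scaling), while DDIT3 and ATF4 were lower by -0.59 and -0.28 (adjusted p = 7.7e-05 and 0.00031, -0.72 and -0.42 after scaling). EIF2AK3 and ATF6 stood at 0.26 each (adjusted p = 0.024 and 0.0046), and after scaling at 0.13 and 0.12, where neither passed (adjusted p = 0.16 and 0.051).

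**Figure D4:**
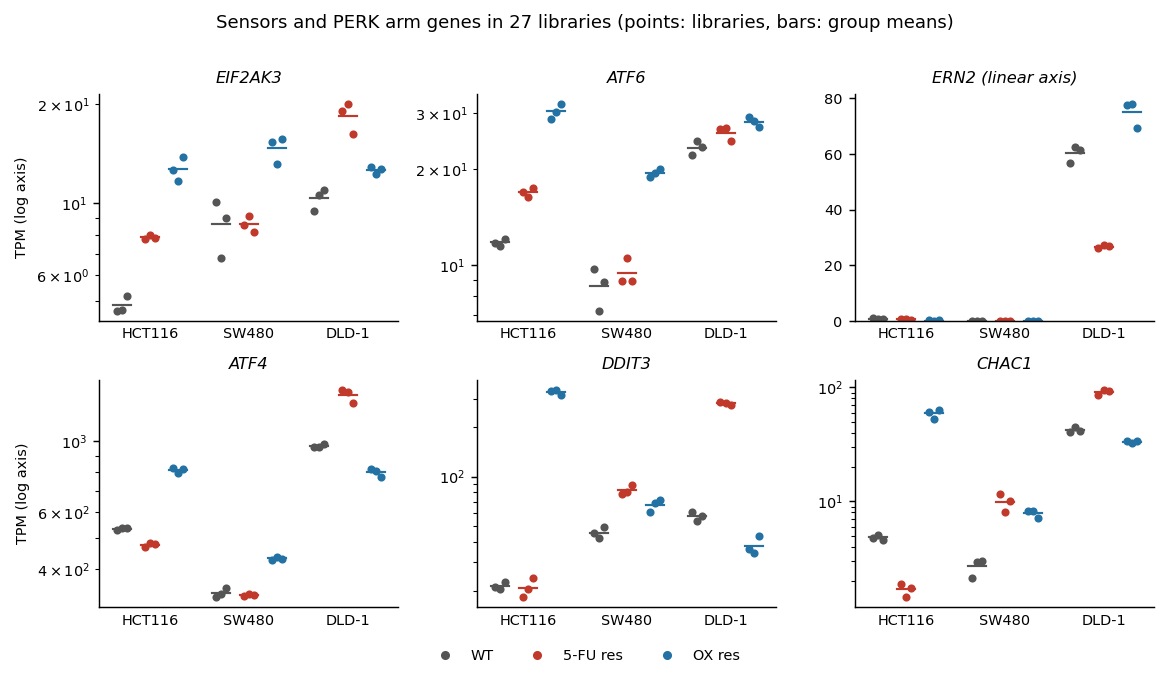
TPM of 3 sensor genes (EIF2AK3, ATF6 and ERN2) and 3 PERK arm genes (ATF4, DDIT3 and CHAC1) in the 27 libraries, with points for libraries and bars for group means, on a log axis except for ERN2. DDIT3 is at 314 to 338 TPM in HCT116 OX res and 273 to 286 in DLD-1 5-FU res and under 90 in the other 7 groups, and ERN2 is at most 0.923 TPM outside DLD-1.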

How the data were processed

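Deposited FPKM values (fragments scaled by transcript length and library size, 26255 genes in each of 27 tables) had been made by the authors from stranded mRNA libraries read as 100-base single reads, trimmed with Trimmomatic, aligned to hg19 with TopHat2 2.1.1 (Bowtie2 2.2.8, SAMtools 0.1.18) and quantified with Cufflinks per the methods or Cuffdiff 2.2.1 per the submitters' processing notes. The tables hold no counts, so depth was compared only as the relative step size of low values. FPKM was divided by the library sum to give TPM, and 0 columns of per-sample values were left unused.

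Groups were taken from the labels. limma 3.58.1 (R 4.3.3, empirical Bayes with a trend) was fitted to log2(TPM + 1) within each line and, for WT lines and interactions, over all 27 libraries, with Benjamini-Hochberg adjustment over all genes kept, those reaching a TPM of 1 in 3 or more libraries of the fit. All adjusted p-values come from limma. The study's rank-sum test cannot pass a threshold with 3 against 3 libraries, so its thresholds were kept with limma. No test was made for the 10 genes in DLD-1 5-FU res or for HERPUD1 in any contrast with DLD-1. On simulated data, 98 of 100 genes changed by 1.5 on the log2 scale and 100 of 100 changed by 3 were recovered for DLD-1 OX res against WT, with 2 false calls among 13229 genes. The 200 changed genes were drawn from those at higher levels, and the typical gene was not shifted. Recovery at low levels and the choice of scaling were therefore not covered.

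The 10 genes and the lists were chosen with earlier results of these data known. Named from the lists were, per comparison, up to 2 genes of largest change in each direction past the threshold without overlap, and ERN2, EIF2AK3, ATF6, ATF4 and DDIT3 throughout, and for HERPUD1 the 5 genes of highest r. Alternatives were other pseudocounts, filters and scalings, a length correction, a replicate block and leaving out each library. Python 3.11.15, numpy 2.4.6, pandas 2.3.3 and matplotlib 3.10.9 were used. Gene positions were from GENCODE lifted to GRCh37, and promoters from RefSeq.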

Additional observations from a re-analysis of the deposited data

Results flagged for a closer look

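Changes that differed between lines by a test of the difference itself (limma interaction over all 27 libraries) came first for 5-FU res against WT, SW480 minus HCT116. They were 2.08 for HERPUD1, 1.59 for HSPA5, 1.37 for XBP1, 1.65 for SDF2L1, 1.29 for PDIA4, 1.24 for DERL3, 1.19 for CRELD2 and -1.07 for ERN1 on the log2 scale. DERL3 passed the filter only through SW480, so its difference is a description. After scaling DERL3 and CRELD2 fell under the threshold, as did ERN1 without some single libraries. Of all genes, 19.8% passed. HERPUD1 was above WT in all 3 SW480 5-FU res libraries and below WT in all 3 of HCT116. For OX res against WT the difference was -1.18 for XBP1 between SW480 and HCT116, where 19.5% of all genes passed. Between DLD-1 and HCT116 it was -1.2 for HSPA5 (-0.78 after scaling, under the threshold), -1.93 for XBP1, -1.79 for DNAJB9 and -1.94 for ERN1. Here 29.1% of all genes passed. Between DLD-1 and SW480 it was -1.56 for ERN1, where 14.4% passed. DLD-1 and its own series of library names cannot be told apart in these differences.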

How the results depend on the processing

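Values were recomputed with a pseudocount of 0.1, with no filter, at a mean TPM minimum of 5, on FPKM as deposited, after median-of-ratios scaling, after quantile normalization, with the trend on transcript length removed, with a replicate block and without each library in turn. A value counted as kept if it held its direction and side of the threshold. Where no test was made, it counted as kept if it moved by less than the SD between libraries or the SE. Of 145 values for the 10 genes, those kept numbered 145 with no filter, 143 with the smaller pseudocount, 142 with the block, 133 with the length trend removed, 110 after quantile normalization, 106 after median-of-ratios scaling and 103 on FPKM, and all 122 that a mean TPM minimum of 5 left were kept. The smaller numbers came with another scaling, where counts of the 10 genes past the threshold moved as follows. For HCT116 5-FU res against WT, 0 genes were higher at a mean TPM minimum of 5, on FPKM and after quantile normalization. For HCT116 OX res against WT, 2 were higher on FPKM and 1 was lower on FPKM and after either scaling. For SW480 5-FU res against WT, 1 was higher and 1 lower on FPKM and after median-of-ratios scaling, and 1 lower after quantile normalization. For SW480 OX res against WT, 0 were higher on FPKM and after either scaling, and 1 to 3 without each library in turn, the lowest without WT replicate 2. Between SW480 5-FU res and OX res, 0 were higher and 0 lower at a mean TPM minimum of 5, which left out DERL3 and ERN1, the genes that had passed, 0 were lower on FPKM and with the length trend removed, and 0 to 1 were lower without each library, the lowest without 5-FU res replicate 3. For SW480 WT against HCT116 WT, 2 were higher with the smaller pseudocount, 0 at a mean TPM minimum of 5 and 1 to 2 without each library (2 without HCT116 WT replicate 3 or SW480 WT replicate 2), and 0 were lower on FPKM and after either scaling and 0 to 1 without each library (0 without HCT116 WT replicate 1 or SW480 WT replicate 1 or 3). For DLD-1 WT against HCT116 WT, 1 was higher at a mean TPM minimum of 5, on FPKM and after median-of-ratios scaling, 1 was lower on FPKM and after either scaling, and 0 to 1 were lower without each library, the highest without HCT116 WT replicate 3. For DLD-1 WT against SW480 WT, 1 was higher on FPKM and after median-of-ratios scaling, 2 after quantile normalization, and 0 lower at a mean TPM minimum of 5. Of the differences between lines, 4 genes passed for 5-FU res after quantile normalization, 1 to 2 for OX res, SW480 minus HCT116, without each library (2 without SW480 WT replicate 2 or OX res replicate 1), and 0 for OX res, DLD-1 minus SW480, at a mean TPM minimum of 5.

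Log2 values changed sign for these genes, given first on FPKM and then after median-of-ratios scaling. PDIA4 was at -0.0515 and -0.0528 in OX res of HCT116. For 5-FU res of SW480 they were -0.17 and -0.18 for HSPA5, -0.35 and -0.35 for HYOU1, -0.14 and -0.17 for ERN1, -0.0682 and -0.0724 for PDIA4, -0.37 and -0.40 for EIF2AK3 and -0.26 and -0.28 for ATF6. For OX res of SW480 they were -0.27 and -0.26 for HSPA5 and -0.0763 and -0.0686 for ATF4. Between DLD-1 WT and HCT116 WT they were -0.0097 and -0.0046 for HSPA5, -0.0845 and -0.0804 for CRELD2 and -0.33 and -0.33 for PDIA4, and for SDF2L1 between DLD-1 WT and SW480 WT -0.47 and -0.47. For OX res, the difference between DLD-1 and HCT116 was 0.30 and 0.31 for CRELD2, that between DLD-1 and SW480 was 0.059 and 0.0516 for HYOU1 and 0.27 and 0.29 for DERL3, and that between SW480 and HCT116 was -0.28 and -0.30 for DERL3. After quantile normalization ATF4 in HCT116 5-FU res was 0.21, ERN1 between HCT116 5-FU res and OX res 0.0659, HYOU1, ERN1, EIF2AK3 and ATF6 in SW480 5-FU res -0.084, -0.48, -0.59 and -0.46, HYOU1 between SW480 WT and HCT116 WT -0.0121, SDF2L1 between DLD-1 WT and SW480 WT -0.17, and for OX res the difference for DERL3 was -0.52 (SW480 minus HCT116) and 0.44 (DLD-1 minus SW480) and that for CRELD2 0.0266 (DLD-1 minus HCT116). With the length trend removed ATF4 and DDIT3 in HCT116 5-FU res were 0.21 and 0.39, CRELD2 in HCT116 OX res 0.20, SDF2L1, ERN1, EIF2AK3, ATF6 and ATF4 in SW480 5-FU res 0.16, -0.0471, -0.0806, -0.0408 and 0.18, XBP1 between SW480 5-FU res and OX res -0.0115, HYOU1 between SW480 WT and HCT116 WT -0.0007, and the OX res difference for CRELD2, DLD-1 minus SW480, -0.0059. Without each library in turn, DDIT3 in HCT116 5-FU res ran from -0.14 to 0.0396, ERN1, EIF2AK3 and ATF4 in SW480 5-FU res from -0.0643 to 0.31, -0.13 to 0.12 and -0.0449 to 0.002, HYOU1 and DERL3 in SW480 OX res from -0.0865 to 0.0294 and -0.17 to 0.11, HYOU1 between SW480 WT and HCT116 WT from -0.0343 to 0.0817, SDF2L1 between DLD-1 WT and SW480 WT from -0.0384 to 0.13, and the OX res differences for DERL3 from -0.11 to 0.17 (SW480 minus HCT116), -0.12 to 0.009 (DLD-1 minus HCT116) and -0.20 to 0.0787 (DLD-1 minus SW480). Except where the construction of an alternative shows it, the cause of these changes was not tested.

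The labels tie libraries across the groups of a line by replicate number only. Pairs with the same number had median correlations of their deviations of 0.093 in HCT116, 0.022 in SW480 and -0.034 in DLD-1, and over 0.1 in 3, 1 and 1 of 9 pairs. For pairs with differing numbers the medians were -0.0305, 0.004 and -0.028, and 3, 1 and 4 of 18 pairs were over 0.1. With the replicate block, 0 genes were lower in SW480 WT than HCT116 WT, where SDF2L1 fell under the threshold at -0.96, HYOU1 there was -0.0046, and the block changed no other call. DERL3 and ERN1 had the lowest levels of the set, and without counts in the files no interval for a level near 0 can be given.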

Other observations

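Outside the set, 38 genes had an ERSE or ERSE-II in a promoter window, a list chosen after the values of these data were seen. Of the 24 measured in HCT116, 1 rose and 2 fell past the threshold between WT and 5-FU res, with a median log2 fold change of -0.12 beside 0.18 for all genes, of which 11.6% rose and 3.82% fell. Between WT and OX res 9 of them rose and 1 fell, with a median of 0.725 beside 0.60, where 28.5% of all genes rose and 4.83% fell. Of the 23 measured in SW480, 3 rose and 1 fell between WT and 5-FU res (18.3% and 2.85% of all genes, median 0.345 beside 0.44), and 2 rose between WT and OX res (13.7% of all genes, median 0.29 beside 0.36). In DLD-1 the median of the 24 measured was 0.046 beside 0.13 for OX res and, with no test, 0.093 beside -0.027 for 5-FU res.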
